A study of Mus musculus with 2 samples.

Results

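Tcf7, Tcf7l1, Tcf7l2 and Lef1, the 4 TCF/LEF transcription factor genes, and Tcf4, Tcf3 and Tcf12, the 3 E-protein genes that share part of their names, were followed through single-cell RNA profiles of mouse prostate lesions. These 7 genes were picked by name from the 19320 features of the table, with earlier results of these data known. The study had already reported higher Tcf4 in luminal tumour clusters of these single-cell data. The tissues came from R26 mTmG/hAR:Osr1 Cre/+ mice, which carry a floxed human androgen receptor transgene (hARtg) and a membrane reporter at the Rosa26 locus, both switched on by Cre from the Osr1 gene. Cre driven by Osr1 acts in the cells of that lineage, so the alleles are switched on in some cells and not in others. A UMI of hARtg or mGFP was not proof of it, since free RNA can enter any droplet and both were also found in blood and stromal classes. Prostatic intraepithelial neoplasia (PIN) was taken from 6-month-old mice and prostate adenocarcinoma (PCa) from 12-month-old mice, with 1 library for each, and both groups carried the same alleles on a mixed C57BL/6 and 129S1/SvImJ background. The cell barcodes had 1 of 2 endings, here called set 1 and set 2. Nothing in the labels or the header ties an ending to a tissue. The sets were therefore kept apart as libraries, and PIN was not compared with PCa.

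TCF/LEF proteins hold a high-mobility-group (HMG) box and sit on the regulatory elements of Wnt-responsive genes, where they recruit TLE co-repressors until stabilised β-catenin joins them. Tcf7l2 is the member best known from epithelia, Tcf7 and Lef1 are known from T-cell development, and Tcf7l1 acts mostly as a repressor. E-proteins are basic helix-loop-helix factors that bind DNA as dimers, often with a tissue-specific partner, and they are held off DNA by the ID proteins. Among the E-proteins, Tcf3 encodes E2A and Tcf12 encodes HEB. Tcf4 encodes E2-2, a factor known from plasmacytoid dendritic cells, B cells and endothelium.

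The names invite confusion. In the RefSeq gene table, Tcf4 is listed as an older name of Tcf7l2, and Tcf3 as an older name of Tcf7l1. The genes lie on different chromosomes of GRCm38.p6, the mm10 build of the files: Tcf7l2 at chr19:55741797-55933659, Tcf7 at chr11:52246527-52283383, Tcf7l1 at chr6:72626371-72789045, Lef1 at chr3:131110297-131224357, Tcf3 at chr10:80409541-80433976 and Tcf12 at chr9:71844252-72111893. The annotated span of Tcf7 overlaps that of the protein-coding gene Skp1, so reads in the shared stretch could belong to either, while the others overlap non-coding genes, pseudogenes or no gene.

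The coding sequences show the same division. The stretch of 20 codons that is best conserved among the TCF/LEF genes is shown here for the members whose values are set against those of Tcf4, read 5′ to 3′ from GENCODE M1 transcripts, with capitals at the 43 of 60 bases that are identical in all 4 lines.
Tcf7: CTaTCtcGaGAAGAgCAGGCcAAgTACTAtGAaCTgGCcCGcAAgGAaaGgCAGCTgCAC
Tcf7l1: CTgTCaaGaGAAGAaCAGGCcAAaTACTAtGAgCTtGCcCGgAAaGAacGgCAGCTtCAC
Tcf7l2: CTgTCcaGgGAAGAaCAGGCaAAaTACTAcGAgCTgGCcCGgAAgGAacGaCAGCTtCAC
Lef1: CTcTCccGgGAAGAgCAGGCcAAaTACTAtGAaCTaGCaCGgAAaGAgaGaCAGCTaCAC

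All 4 lines translate to the same 20 residues, and the bases in lower case are silent differences. The best match that Tcf4, Tcf3 or Tcf12 holds anywhere to this block has 7 of 20 residues. The best conserved block of the E-protein genes is another stretch, shown for Tcf3 and Tcf12 with capitals at the 48 of 60 bases they share.
Tcf3: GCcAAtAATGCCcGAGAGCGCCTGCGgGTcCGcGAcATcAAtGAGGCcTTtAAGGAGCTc
Tcf12: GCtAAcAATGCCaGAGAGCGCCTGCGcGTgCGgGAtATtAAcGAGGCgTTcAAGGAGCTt

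Tcf4 encodes the same 20 residues in this block, whereas the TCF/LEF members match 4 or 5 of them at best. Over the whole translated coding sequences, identity ran from 49.6 to 64.7% among the TCF/LEF pairs and from 53.0 to 63.1% among the E-protein pairs. Between the families it ran from 20.8 to 29.97%. Tcf4 is thus an E-protein gene by sequence, and its values are not values of the Wnt effector Tcf7l2.

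Set 1 held 6332 cells with a median of 17235 UMIs (unique molecular identifiers, 1 for each captured RNA molecule), and set 2 held 9410 cells with a median of 14824.5. After doublets were left out, 14295 of 15412 cells passed gates on marker genes and were given a class, and 7.25% stayed unassigned. Luminal-like cells numbered 2034 in set 1 and 7829 in set 2, basal-like cells 1418 and 249, and T-like cells 728 and 22. The defining markers stood where they should, with Krt8 at 6795 and 8225 CPM (the UMIs of a gene over all UMIs of the cells, scaled to the usual common total) in luminal-like cells, Krt14 at 4814 and 4966 CPM in basal-like cells and Col1a1 at 789 and 1371 CPM in fibroblast-like cells of sets 1 and 2. Innate-lymphocyte-like and B-like cells were described only in set 1, since set 2 held 2 and 6 of them, and smooth-muscle-like cells only in set 2. There were no replicates, so the intervals given are 95% intervals of counting error alone, and 67 barcodes occurred in both sets.

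Tcf4, at chr18:69343429-69687967 of the same build, differed strongly between classes. In set 1 it stood at 1618 CPM (1474 to 1773) in endothelium-like cells, 385 CPM (325 to 452) in B-like cells and 191 CPM (167 to 218) in fibroblast-like cells. Innate-lymphocyte-like cells followed with 128 CPM (99.9 to 162) and myeloid-like cells with 118 CPM (91.4 to 150), and the intervals of these neighbours overlapped. The epithelial classes of set 1 were low, with 26.6 CPM in basal-like, 23.4 CPM in luminal-like and 21.6 CPM in proximal-luminal-like cells. The intervals of neighbours overlapped here too, and no ratio between these classes was taken. T-like cells held the least, 10.6 CPM (7.52 to 14.6).

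In set 2 the endothelium-like cells again led with 1311 CPM (1256 to 1369) of Tcf4. Luminal-like cells came next at 412 CPM (409 to 415), above fibroblast-like cells at 290 CPM (264 to 319) and smooth-muscle-like cells at 252 CPM (189 to 329). Proximal-luminal-like cells reached 139 CPM, myeloid-like cells 117 CPM and basal-like cells 77.3 CPM. The 22 T-like cells of set 2 held no Tcf4 UMI, which allows a level of up to 52.8 CPM. Myeloid-like cells were at 118 and 117 CPM in the 2 sets, so the gap between the sets was not shared by every class.

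Cells were also thinned to 3000 UMIs, and here and below this left out cells with fewer. Left out were 197 of 728 T-like cells of set 1 and 51 of 301 fibroblast-like cells of set 2. After thinning, the shares of cells with a Tcf4 UMI followed the order of the levels in set 1. In set 2 they did so with 1 exception, as myeloid-like cells (27.6%, 21.6 to 34.4%) stood above proximal-luminal-like cells (20.9%, 13.7 to 29.7%), with overlapping intervals. Of the thinned endothelium-like cells, 94.3% (80.8 to 99.3%) of those of set 1 and 95.3% (90.1 to 98.3%) of those of set 2 held a Tcf4 UMI. In luminal-like cells of set 1 the thinned share was 7.28% (6.19 to 8.51%), and in those of set 2 it was 65.4% (64.4 to 66.5%). The unthinned luminal-like shares were 41.1% and 93.0% at median depths of 28563 and 16708 UMIs. T-like cells of set 1, a class with little Tcf4, had a thinned share of 1.88% (0.907 to 3.44%) over 531 cells. Their unthinned share was 4.53% over all 728 cells, at a median of 3637 UMIs. A single luminal-like cell of set 2 held up to 85 Tcf4 UMIs, against at most 12 in set 1.

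**Figure D1:**
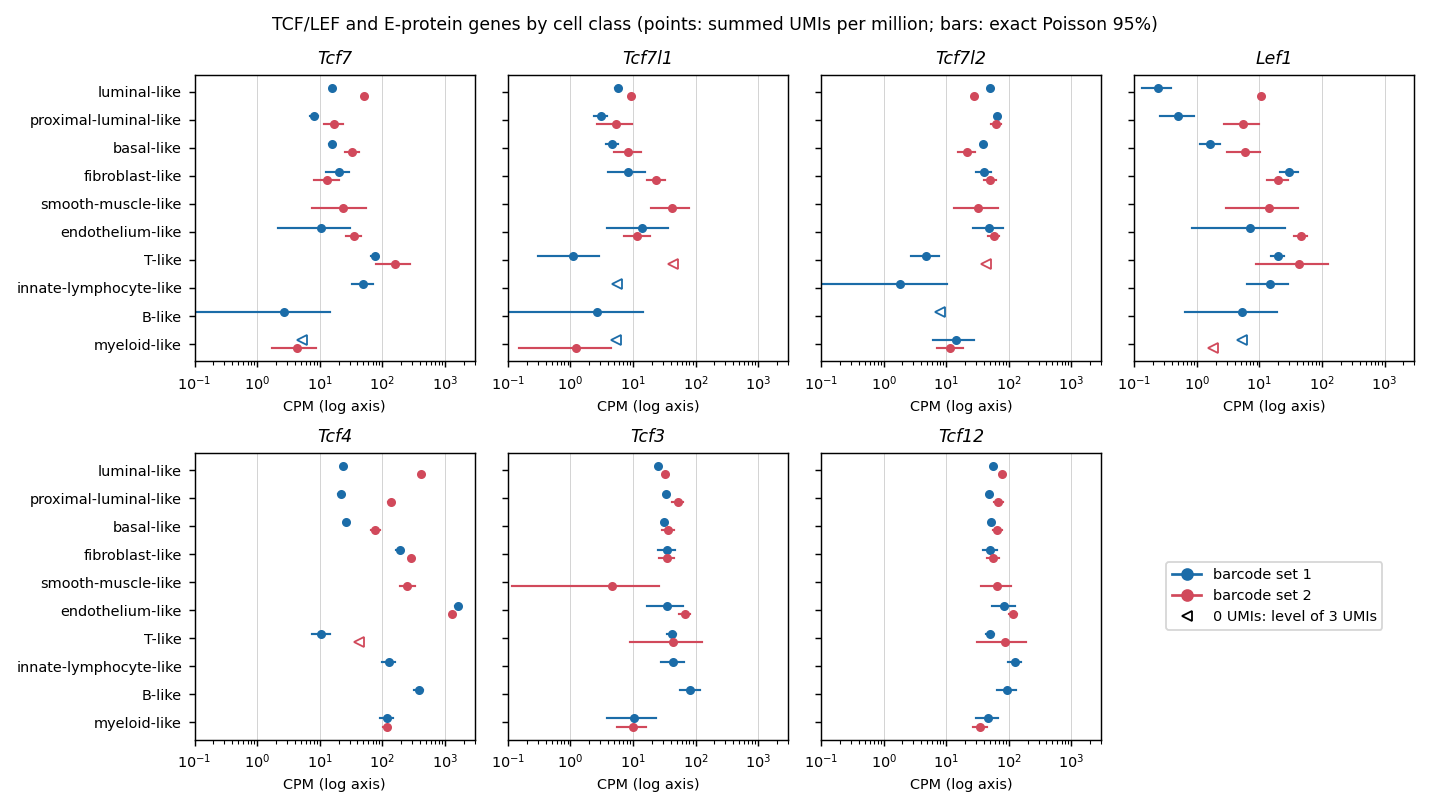
Levels of the 7 genes in each cell class as CPM on log axes, blue for barcode set 1 and red for set 2, with bars for exact Poisson 95% intervals and open triangles at the level of 3 UMIs where none was seen. Tcf4 goes from 10.6 CPM in T-like cells of set 1 to 1618 CPM in endothelium-like cells, while Tcf12 stays between 35.0 and 124 CPM.

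Tcf7l2, the Wnt effector, had another pattern, high in epithelium and stroma and low in lymphoid cells. Proximal-luminal-like cells led in both sets with 63.7 CPM (60.5 to 67.0) and 62.0 CPM (51.6 to 73.8). Luminal-like cells stood at 50.3 CPM (48.6 to 52.1) in set 1 and 27.5 CPM (26.7 to 28.3) in set 2, and basal-like cells at 38.2 CPM and 21.3 CPM. Endothelium-like cells had 48.8 and 57.0 CPM and fibroblast-like cells 39.9 and 50.7 CPM, with overlapping intervals between these neighbours in each set. T-like cells of set 1 held 4.75 CPM (2.77 to 7.61), innate-lymphocyte-like cells 1 UMI and B-like cells none, which allows up to 9.72 CPM.

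Tcf7 and Lef1 were highest outside the epithelium in set 1. Tcf7 stood at 75.5 CPM (66.8 to 85.1) in T-like and 49.4 CPM (32.6 to 71.9) in innate-lymphocyte-like cells, whose intervals overlap, and at 15.8 CPM (14.9 to 16.8) in luminal-like cells. The 54 myeloid-like cells of set 1 held no Tcf7 UMI, which allows up to 6.49 CPM. In set 2 luminal-like cells reached 50.9 CPM (49.8 to 51.9) of Tcf7, below the 157 CPM (78.6 to 282; 11 UMIs) of the 22 T-like cells. Lef1 was led by fibroblast-like cells in set 1, at 29.9 CPM (20.9 to 41.4), beside 19.6 CPM (15.3 to 24.7) in T-like cells. It was led by endothelium-like cells in set 2, at 45.9 CPM (36.0 to 57.6). Luminal-like cells held 0.235 CPM of Lef1 in set 1 (15 UMIs) and 10.6 CPM (10.1 to 11.1) in set 2.

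Tcf7l1, the repressor of the family, was sparse. Its highest levels were 42.0 CPM (19.2 to 79.7; 9 UMIs) in smooth-muscle-like and 23.7 CPM (16.6 to 32.8) in fibroblast-like cells of set 2, and luminal-like cells stood at 5.73 and 9.40 CPM. Its order of classes rests on few UMIs, with 4 in all T-like cells of set 1 and none in innate-lymphocyte-like cells. Neighbours in its order of classes overlapped in both sets.

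The E-protein genes Tcf3 and Tcf12 were spread more evenly than Tcf4. Tcf12 ran from 45.7 CPM in myeloid-like to 124 CPM (96.6 to 158) in innate-lymphocyte-like cells of set 1, and from 35.0 to 118 CPM in set 2. Tcf3 ran from 10.6 CPM in myeloid-like to 81.7 CPM (55.5 to 116) in B-like cells of set 1. B-like cells thus held all 3 E-protein genes, with Tcf4 at 385, Tcf12 at 92.2 and Tcf3 at 81.7 CPM, while they held no Tcf7l2 and 1 or 2 UMIs of each of the other TCF/LEF genes. T-like cells held Tcf3 at 41.7 and Tcf12 at 50.1 CPM and were the class lowest in Tcf4.

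Cells with markers of plasmacytoid dendritic cells (Siglech, Ccr9 and Cox6a2), a type known for Tcf4, were rare. In set 1, 8 cells held at least 2 of the 3 markers, and 7 of these had a Tcf4 UMI, at a level of 381 CPM (265 to 529). Of these 8 cells, 3 fell in the luminal-like class, 2 were unassigned and 3 fell in the myeloid-like class, whose Tcf4 level was 91.8 CPM (68.2 to 121) without them. No such cell fell in the innate-lymphocyte-like class. Its Tcf4 UMIs came with Pecam1 at 106 CPM and with no UMI of the endothelial genes Cdh5, Kdr, Emcn and Plvap.

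The genes whose levels ran most like those of a member were sought over the 13 sums of a class and set with 50 or more cells. For Tcf4 these were Stard9 (Pearson r = 0.88), Prex2 (0.84) and Zfp358 (0.83). For Tcf7l2 they were Lzts2 (0.98), Gab1 (0.95) and Gas2l1 (0.95), for Tcf7 Gtf3c1 (0.93), Bcl7a (0.92) and Puf60 (0.92), among those of Lef1 were Zfp36l1 (0.93) and Trim28 (0.92), and for Tcf7l1 Kazn (0.96), Mettl9 (0.95) and Tshz2 (0.95). Between the members, r did not follow the families: Tcf7 and Tcf3 had 0.78, Lef1 and Tcf3 0.76, Tcf7l1 and Tcf7l2 0.75 and Tcf7 and Lef1 0.71, while Tcf4 and Tcf7l2 had 0.20 and Tcf7 and Tcf7l2 -0.17. The sums of a set share a library and differ in depth, so these values are descriptions.

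The second question was how the members stood in cells with and without the transgene. Luminal-like cells called hARtg-high held at least 5 UMIs of hARtg and were set against those that held 0, 322 against 1204 cells in set 1 and 7111 against 174 in set 2. In set 1, Tcf4 stood at 30.3 CPM in hARtg-high and 21.03 CPM in hARtg 0 cells, a log2 ratio of 0.53 (0.34 to 0.71). In set 2 it stood at 423 and 83.4 CPM, a log2 ratio of 2.34 (2.16 to 2.54). Tcf7l2 was lower in hARtg-high cells of both sets, at 29.6 against 55.4 CPM in set 1 (log2 ratio -0.90, -1.07 to -0.74) and 26.6 against 55.0 CPM in set 2 (-1.05, -1.28 to -0.80). The hARtg 0 cells of both sets were thus at like levels of Tcf7l2, and the hARtg-high cells were at like, lower levels.

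For Tcf7 the direction differed between the sets. Its levels were 10.3 CPM in hARtg-high against 17.96 CPM in hARtg 0 cells of set 1 (log2 ratio -0.80, -1.09 to -0.52) and 51.8 against 26.6 CPM in set 2 (0.96, 0.63 to 1.32). Lef1 could be read in set 2 only, at 10.9 against 2.21 CPM (2.31, 1.18 to 3.75), where the hARtg 0 side held 6 UMIs, since set 1 held 4 and 8 UMIs. Tcf7l1 was higher in hARtg-high cells by 0.57 (0.19 to 0.94) and 0.78 (0.056 to 1.62). Tcf3 and Tcf12 had small ratios of opposite sign in the sets, -0.27 and -0.50 in set 1 and 0.50 and 0.23 in set 2.

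A gene was called past the fold when its log2 ratio was at least 1 in size and its mean over both sides at least 5 CPM. In set 1, 4.61% of the genes tested passed this limit upwards and 4.49% downwards, and none of the 6 members tested did. In set 2, 9.97% passed upwards and 14.1% downwards, with Tcf4 and Lef1 among the former and Tcf7l2 among the latter, out of 7 members tested. Lef1 met the mean of 5 CPM only through its hARtg-high side, at 10.9 against 2.21 CPM, so it could be counted upwards only. The hARtg 0 cells were shallower in both sets, with medians of 26610.5 against 35619.5 UMIs in set 1 and 14519 against 17533 in set 2. The sides of set 2 were uneven, and its hARtg 0 cells still held mGFP at 2531 CPM, against 135 CPM in hARtg 0 cells of set 1. Splitting the cells on 1 or more hARtg UMI after thinning to 3000 UMIs gave log2 ratios in set 2 of 0.81 for Tcf4, 0.90 for Lef1 and -0.53 for Tcf7l2, so that none of the 3 was past the fold any more. In set 1 that split gave 0.34 for Tcf4 and -0.69 for Tcf7l2, and weighing every cell the same gave 1.73 for Tcf4 in set 2.

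Markers of other cells were read in the same luminal-like cells. Endothelial markers, summed over 5 genes, were at 5.23 CPM in hARtg-high and 30.6 CPM in hARtg 0 cells of set 2, the reverse of Tcf4, with 1 of the 5 at 0 in the latter. In set 1 they were at 9.99 and 5.85 CPM, with 2 of the 5 at 0 in the hARtg-high cells. Their part in the Tcf4 ratio of either set was not tested. Basal markers, 5 genes, were at 25.6 and 258 CPM in set 2 and at 414 and 534 CPM in set 1, and their part in the ratios was not tested. The luminal markers of the class itself, 6 genes, also differed between the sides, and in opposite directions. They were at 17502 and 10692 CPM in set 2 and at 8091 and 16826 CPM in set 1, and their part was not tested either.

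Fibroblast markers, 6 genes, were at 224 and 94.4 CPM in set 2 and at 136 and 75.7 CPM in set 1, with 2 of the 6 at 0 in the hARtg-high cells of set 1, so they moved the same way as Tcf4. Over all luminal-like cells nearly all of that sum was Dcn, at 216 of 219 CPM in set 2 and 111 of 112 CPM in set 1, while Col1a1 was at 0.47 and 0.047 CPM. Col1a2, Col3a1, Lum and Pdgfra were also higher in luminal-like cells of set 2 than of set 1, with Lum at 0.43 and 0.078 CPM. Basal-like cells of set 1 held Dcn at 2637 CPM beside Tcf4 at 26.6 CPM. Fibroblast-like cells of sets 1 and 2 held Dcn at 8544 and 8183 CPM beside Tcf4 at 191 and 290 CPM. The part of fibroblast RNA in the Tcf4 ratios was not tested.

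**Figure D2:**
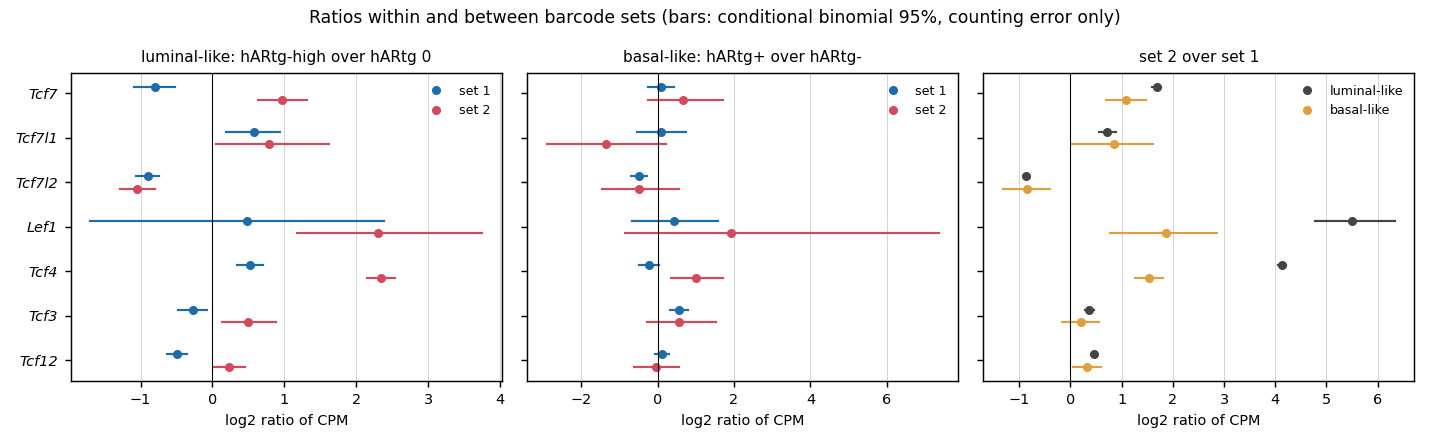
Log2 ratios of CPM for the 7 genes in hARtg-high over hARtg 0 luminal-like cells (left), hARtg+ over hARtg- basal-like cells (middle) and set 2 over set 1 (right), with bars for conditional binomial 95% intervals and no point where a side was at 0. Tcf4 lies to the right of 0 and Tcf7l2 to the left of 0 in luminal-like cells of both sets, at 0.53 and 2.34 against -0.90 and -1.05.

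Levels were also read in steps of hARtg, with cells binned by their hARtg UMIs after thinning to 3000 UMIs. In set 2, Tcf4 stood at 242 CPM (233 to 251) in cells with none, 383 CPM in cells with 1 to 2, 423 CPM in cells with 3 to 5 and 456 CPM (450 to 461) in cells with 6 or more. In set 1 the values were 22.4, 28.6, 26.1 and 30.7 CPM, and the last 3 overlapped. At every step Tcf4 was higher in set 2 than in set 1. The cells of a step were not alike in hARtg itself, whose level over all their UMIs was 32.0 CPM in set 1 and 378 CPM in set 2 at the lowest step, and 1752 and 2262 CPM at the highest.

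Tcf7l2 in set 1 stood at 54.2 CPM (52.2 to 56.3) in cells with no hARtg UMI, 36.8 CPM (32.8 to 41.3) in those with 1 to 2, 27.1 CPM (21.4 to 34.0) in those with 3 to 5 and 25.0 CPM (16.3 to 36.6; 32 cells) in those with 6 or more. In set 2 it was 38.6 CPM (35.2 to 42.3) in cells with none and 26.7, 26.8 and 26.6 CPM in the steps above. Tcf7 in set 2 was 38.0 CPM with no hARtg UMI and 49.9, 52.3 and 52.7 CPM in the steps above, with overlapping intervals among these 3. Lef1 there was 5.87 CPM and then 10.6, 10.9 and 11.3 CPM.

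**Figure D3:**
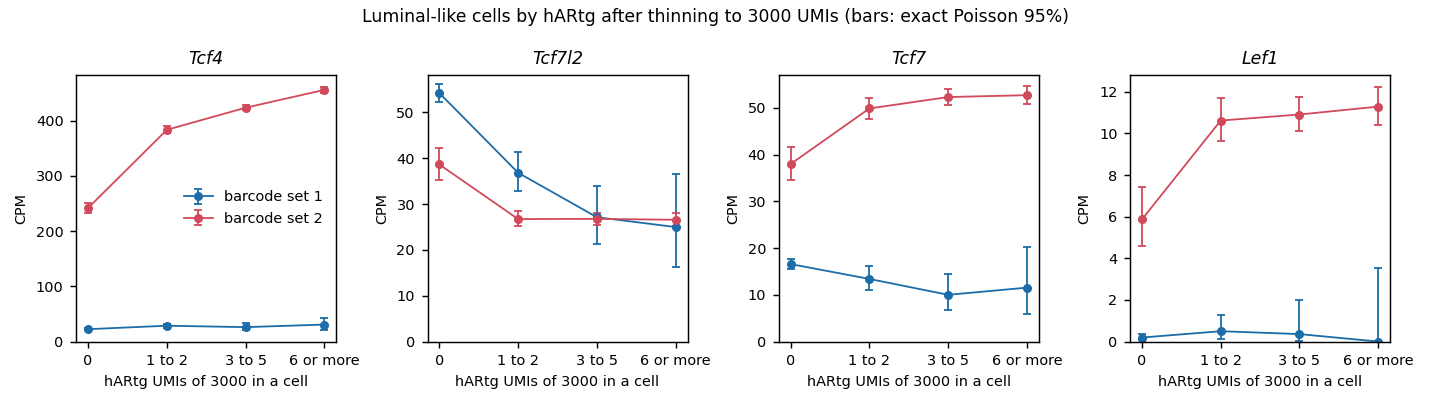
Levels of Tcf4, Tcf7l2, Tcf7 and Lef1 in luminal-like cells binned by hARtg UMIs after thinning to 3000, blue for set 1 and red for set 2, on linear axes from 0 with exact Poisson 95% bars. In set 2 Tcf4 goes from 242 to 456 CPM, while in set 1 Tcf7l2 goes from 54.2 to 25.0 CPM.

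Clusters of luminal-like cells, made within each set without the 7 genes, showed how far the members varied inside the class. In set 1, Tcf7l2 was at 71.7 CPM in cluster 2 (led by Pglyrp1 and Cxcl17), 68.2 CPM in cluster 3, 61.8 CPM in cluster 7 and 55.7 CPM in cluster 4 (led by 9530053A07Rik and Tgm4). It was at 30.3 CPM in cluster 8, 24.3 CPM in cluster 5 and 23.1 CPM in cluster 6. Clusters 5 and 6, the 2 highest of set 1 in hARtg (995 and 723 CPM), were the 2 lowest in Tcf7l2, while cluster 8 was low in Tcf7l2 with hARtg at 43.7 CPM. Clusters 2 and 5 were mostly proximal-luminal-like, 63.0 and 64.1% of their gated cells, and their values here rest on 95 and 66 luminal-like cells. Tcf4 in these clusters stayed between 17.2 and 37.7 CPM.

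In set 2, Tcf4 ran from 83.7 CPM in cluster 11 (279 cells led by 9530053A07Rik, Ren1 and the luminal secretory genes Pbsn and Tgm4) to 601 CPM in cluster 8. Cluster 11 was also the lowest of set 2 in hARtg, at 311 CPM, and the highest in Tcf7l2, at 50.8 CPM (45.6 to 56.4). Its Tcf7 was 23.4 CPM and its Lef1 2.18 CPM. Cluster 14 (106 cells led by Spink1 and Sbp) was also low in Tcf4, at 148 CPM, but with hARtg at 940 CPM. Its Tcf7l2 was 27.7 CPM and its Tcf7 13.0 CPM, below that of cluster 11. In cluster 5, led by Cxcl14, Gja1, Bambi and Wnt6, Tcf4 was at 540 CPM, Tcf7 at 68.0 CPM, Lef1 at 15.6 CPM and Tcf7l2 at 36.1 CPM. The cycling cluster 7 (Ube2c, Stmn1, Birc5) had Tcf4 at 428 CPM and Tcf7 at 68.8 CPM.

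**Figure D4:**
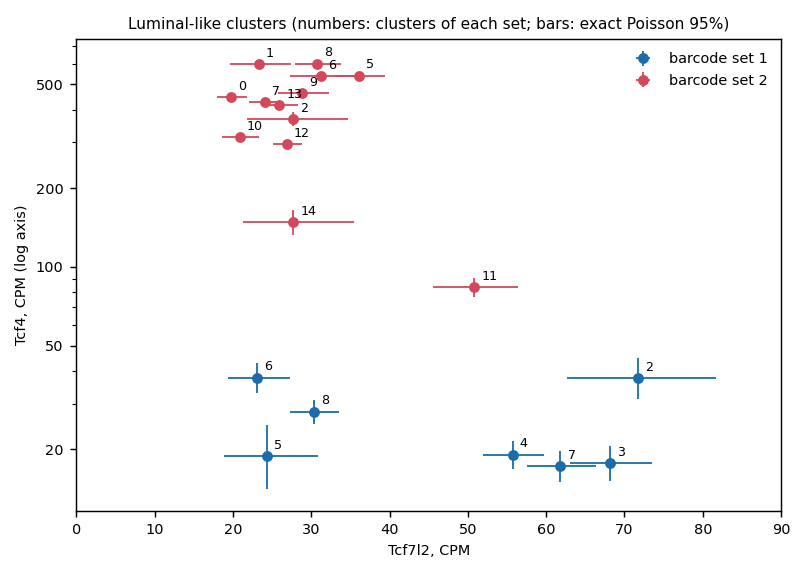
Tcf4 (log axis) against Tcf7l2 (linear axis) in luminal-like clusters of 50 or more cells, blue for set 1 and red for set 2, numbered by cluster, with exact Poisson 95% bars. All set 2 clusters lie above those of set 1 in Tcf4, the lowest being cluster 11 at 83.7 CPM, which is also the highest of set 2 in Tcf7l2.

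Single cells were then read for both genes at once, after thinning to 3000 UMIs. In luminal-like cells of set 2, 7.80% (7.08 to 8.58%) of the 5062 cells with a Tcf4 UMI also held a Tcf7l2 UMI, and 8.18% (7.17 to 9.29%) of the 2676 cells without. In set 1 the shares were 9.52% (5.31 to 15.5%) of 147 cells and 15.4% (13.8 to 17.1%) of 1871 cells. The intervals of the shares overlapped in each set. A Lef1 UMI was found in 3.69% (3.19 to 4.25%) of the cells of set 2 with Tcf4 and in 2.06% (1.55 to 2.67%) of those without. For Tcf12 the shares were 21.4% (20.3 to 22.6%) and 17.1% (15.7 to 18.6%), so in set 2 both genes were seen more often in cells with Tcf4, beyond counting error.

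Between the sets, luminal-like cells of set 2 were higher in Tcf4 by a log2 ratio of 4.13 (4.06 to 4.21), in Lef1 by 5.50 (4.77 to 6.34) and in Tcf7 by 1.68 (1.59 to 1.78). Tcf7l2 was lower by 0.87 (log2 ratio -0.87, -0.94 to -0.81), and Tcf7l1, Tcf3 and Tcf12 had ratios of 0.71, 0.37 and 0.46. The hARtg ratio of the same cells was 3.34. This compares the libraries, 1 of each tissue, with no replicate and with their tissues not assigned here. Past the fold in this comparison were 9.55% of the genes tested upwards and 17% downwards, and 3 of the 7 members upwards. Of these 3, Lef1 met the mean of 5 CPM only through set 2, at 10.6 against 0.235 CPM, so it could be counted upwards only. Endothelial markers summed to 6.15 CPM in set 2 and 6.93 CPM in set 1, but the single genes differed in direction. Cdh5 (0.61 against 0.016 CPM), Kdr (0.335 against 0.047 CPM) and Plvap (0.79 against 0.20 CPM) were higher in set 2. Pecam1 (2.82 against 4.65 CPM) and Emcn (1.59 against 2.02 CPM) were lower. Fibroblast markers summed to 219 and 112 CPM. The part of either group of markers in the Tcf4 ratio was not tested.

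Other classes showed smaller gaps in Tcf4. Set 2 over set 1 gave a log2 ratio of 2.68 (2.47 to 2.89) in proximal-luminal-like, 1.54 (1.27 to 1.80) in basal-like, 0.60 (0.37 to 0.84) in fibroblast-like and -0.01 (-0.42 to 0.41) in myeloid-like cells. The basal-like ratio was 0.85 with a stricter gate and 0.86 with every cell weighing the same. For Tcf7l2 the ratios were -0.04 (-0.31 to 0.22) in proximal-luminal-like and -0.84 (-1.32 to -0.40) in basal-like cells.

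In basal-like cells, those with at least 1 hARtg UMI (hARtg+) were set against those with none (hARtg-). A hARtg UMI was also found in 11.1% of myeloid-like and 13.99% of fibroblast-like cells of set 1, and in 34.8 and 22.3% of those of set 2, so 1 UMI does not separate expression from free RNA. The hARtg- basal-like cells held mGFP at 64.7 CPM in set 1 and 2048 CPM in set 2. They were also shallower, with medians of 9648 against 13220 UMIs in set 1 and 4488 against 6884 in set 2, and these ratios are descriptions of the split alone. In set 1 (585 against 833 cells) Tcf4 was at 24.5 and 28.8 CPM, a log2 ratio of -0.23 (-0.49 to 0.03) that did not exceed counting error. Tcf7l2 was at 31.8 and 44.7 CPM (-0.49, -0.71 to -0.28) and Tcf3 at 37.6 and 25.6 CPM (0.56, 0.32 to 0.80). Past the fold were 2.05% of the genes tested upwards and 1.03% downwards, and none of the 5 members tested.

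In set 2 (163 against 86 cells) Tcf4 was at 88.7 and 44.4 CPM (log2 ratio 0.9997, 0.35 to 1.71, just under the limit), on 133 and 23 UMIs. With a stricter gate, which kept 154 of the 249 basal-like cells of set 2, that ratio was 0.064, and splitting after thinning gave 0.46. The cause of these changes was not tested. Tcf7l1 was the only member past the fold there, downwards, on 9 and 8 UMIs with an interval that includes 0 (-1.36, -2.91 to 0.21), beside 7.79% of genes upwards and 6.03% downwards.

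Genes that work with the TCF/LEF factors were counted in the same luminal-like cells, without a test. Of the list of partners and co-repressors (Ctnnb1 for β-catenin, the Bcl9 and Pygo co-activators, the Tle co-repressors and others), 13 were in the table. In set 1 none of the 10 tested passed the fold, with Ctnnb1 lowest, at 229 CPM in hARtg-high and 419 CPM in hARtg 0 cells (log2 ratio -0.88), and a median of -0.22 beside -0.16 over all genes. In set 2, 1 of 11 passed, Ctnnbip1, an inhibitor of β-catenin binding, at 16.0 against 42.4 CPM (-1.41), with a median of -0.13 beside -0.11. With 14.1% of all genes past the fold downwards there, 1 of 11 is near the share of the background. Bcl9l was the highest there, at 14.8 against 7.75 CPM (0.93).

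Of 11 Wnt feedback and target genes, the study had already reported Axin2, Ccnd1 and Lgr5 as raised in luminal tumour clusters of these data. In set 1, 7 of the 11 were tested. Beside 4.61% of all genes upwards and 4.49% downwards, Sp5 passed upwards, at 24.2 against 8.39 CPM (1.53), and Cd44 downwards (-2.02), with Axin2, a feedback inhibitor of the pathway, at -0.96 and a list median of -0.49. In set 2, 9 of 11 passed upwards, led by Axin2 (3.21), Znrf3 (2.49) and Lgr5 (2.40), and Cd44 downwards (-1.51), with a list median of 2.12. The shares over all genes were 9.97% upwards and 14.1% downwards. Among those 9, Apcdd1 met the mean of 5 CPM only through hARtg-high cells, at 20.4 against 4.80 CPM. Axin2 itself stood at 187 against 20.3 CPM there and at 12.8 against 24.9 CPM in set 1. Between the sets, 8 of 11 passed upwards in set 2, beside 9.55% of all genes and led by Notum (6.31) and Nkd1 (5.22). Cd44 was lower (-3.55), and the list median was 3.15 beside -0.19 over all genes. Of the 8, Notum, Lgr5, Apcdd1 and Rnf43 met the mean of 5 CPM only through set 2. Their levels in set 1 were 1.10, 0.861, 0.579 and 2.66 CPM, so these genes could be counted upwards only. In basal-like cells none of 6 passed in set 1. In set 2, 4 of 10 passed upwards, beside 7.79% of all genes. These were Sp5 on 30 against 0 UMIs, Nkd1 (2.42), and Rnf43 (1.28) and Notum (1.15), whose intervals include 0. Sp5 met the mean of 5 CPM only through hARtg+ cells. At the other end of the list, Axin2 (-0.67, -1.31 to -0.01) and Cd44 (-0.44, -0.78 to -0.09) were lower in hARtg+ cells, though not past the fold. Ccnd1 was at 0.11 there.

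The ID genes, inhibitors of the E-proteins, were also read. In set 1, Id1 and Id2 passed the fold upwards, at 183 against 82.2 CPM (1.16) and 117 against 55.8 CPM (1.07), out of 4 genes tested and beside 4.61% of all genes. In set 2, Id3 passed out of 3, beside 9.97% of all genes, at 460 against 215 CPM (1.10), while Id1 (-0.46) and Id2 (-0.35) did not. None of the partners listed for E-proteins, such as Twist1, Tal1 and Ascl2, reached the level tested in luminal-like cells.

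T-like cells were described within set 1, where Tcf7 and Lef1, known from naive and memory T cells, were the members of interest. Both genes stood far apart between the clusters of these cells. Cluster 14 (277 cells), led by Gzma and the natural killer receptor genes Klre1 and Klrd1, held Tcf7 at 4.82 CPM on 5 UMIs and Lef1 on 1 UMI. Cluster 18 (278 cells), led by genes that include Klf2, Gzmk and S1pr1, held Tcf7 at 133 CPM (113 to 157) and Lef1 at 44.2 CPM (32.6 to 58.6). Their median depths were close, 3334 and 3410 UMIs. Cluster 20, with Zbtb16 and Il17a among its leading genes, held Tcf7 at 105 CPM (66.4 to 157) and Lef1 at 22.8 CPM on 5 UMIs. Cluster 21 (73 cells, median 9465 UMIs), led by cell cycle genes such as Ube2c, Birc5 and Mki67, held Tcf7 at 93.7 CPM (74.7 to 116) and Lef1 at 10.03 CPM (4.59 to 19.1). Lef1 was thus lower in the cycling cluster than in cluster 18, beyond counting error, while the Tcf7 intervals of the 2 clusters overlapped. The clusters were made from the other genes of these cells, so these values are a description.

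By coreceptor, the 493 T-like cells with a Cd8a or Cd8b1 UMI held Tcf7 at 59.2 CPM (50.1 to 69.5) and Lef1 at 9.54 CPM (6.11 to 14.2). The 235 cells with neither held them at 114 CPM (94.8 to 136) and 43.4 CPM (31.8 to 57.9). Of the latter, the 60 cells with a Cd4 UMI held Tcf7 at 130 CPM (96.6 to 172) and Lef1 at 46.8 CPM (27.8 to 74.0). After thinning to 3000 UMIs, Lef1 was found in 8.33% (3.67 to 15.8%) of 96 T-like cells with Tcf7 and in 4.14% (2.47 to 6.46%) of 435 without, shares whose intervals overlap. Tcf4 stayed between 4.60 and 22.8 CPM in every T-like cluster of 50 or more cells, and Tcf7l2 between 1.11 and 4.56 CPM, on at most 4 UMIs each.

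**Figure D5:**
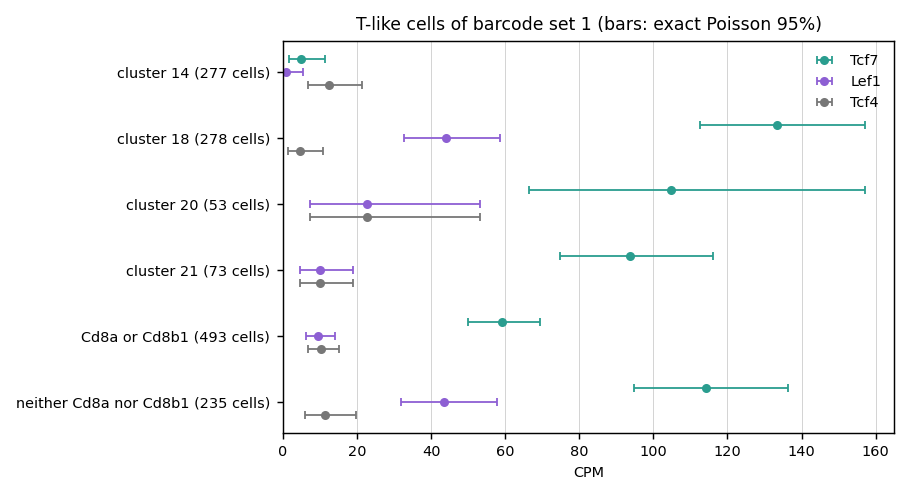
Levels of Tcf7, Lef1 and Tcf4 in T-like cells of set 1 by cluster and by Cd8, as CPM with exact Poisson 95% bars. Tcf7 is at 4.82 CPM in cluster 14 and 133 CPM in cluster 18, and Lef1 is at 10.03 CPM in cluster 21 and 44.2 CPM in cluster 18.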

How the data were processed

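Droplet-based 3′ libraries (10x Genomics, v2 chemistry) of PIN and PCa tissue, 1 of each, were counted by the authors with Cell Ranger 3.1.0 against mm10 with the mGFP and hARtg sequences added, and they took out empty droplets, multiplets and cells with much mitochondrial RNA. Version and build are credited to the submitters' processing notes. The deposited table holds natural log values of 1 plus a gene's UMIs scaled to 10000 per cell, from which whole UMIs were recovered for 100% of values above 0 within a tolerance of 0.001. By their names, ARQ was read as hARtg and EGFP as mGFP.

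Doublets (155 and 175 cells) were called with Scrublet in scanpy 1.11.5 at a limit of 0.25, set after its scores were seen since its own limit called 0. Cells were classed by the mean scaled level of listed markers (score of at least 0.2, lead of at least 0.05), a rule set with the marker values of these cells in view. Trac, Trbc2 and Ighm were not among the features used here, so T-like cells rest on 3 markers and B-like cells on 4. UMIs were summed by class and set. CPM carry exact Poisson 95% intervals, shares exact Clopper-Pearson intervals and ratios conditional binomial intervals, which cover counting error only. Sums of 0 were set to 3 UMIs in ratios, ratios needed 50 cells on each side, and no test was run, since each group held 1 library. The ratio over all genes was tested on simulated data. The named genes were the 7 members, their 3 closest genes by level, and up to 3 genes at each end of the lists. A planned split of T-like cells and a gene close to Lef1 are not reported here. Genes that describe clusters were chosen after their values were seen. The cell numbers that the study gives per tissue were not used to assign the barcode endings, since groups were taken from the labels alone. Members, lists and splits were chosen with earlier results of these data known. The planned comparison of protein sequences used translated GENCODE M1 coding sequences, aligned with biopython 1.88. Alternatives were classes from clusters, doublets kept, a stricter gate, other totals and weights, and other splits.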

Additional observations from a re-analysis of the deposited data

How the results depend on the processing

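Of 546 values recomputed under the alternatives, 453 stayed within their counting interval and 93 moved beyond it, 42 of these being shares of cells after thinning to 6000 UMIs in place of 3000. In all, 12 log2 ratios changed sign, and 0 of these had been past the fold. With classes from clusters, the luminal-like Tcf7l2 ratio of set 1 was -0.73 and the luminal-like Tcf4 ratio between sets 4.22. With the stricter gate, chosen for this comparison after seeing the data, the luminal-like Tcf7l2 ratio between sets was -0.76. When all cells weighed the same, the luminal-like Tcf4 ratio by hARtg in set 2 was 1.73 and that between sets 4.25. When luminal-like cells were split after thinning, Tcf4 was at 0.34 in set 1 and 0.81 in set 2, and Tcf7l2 at -0.69 and -0.53, all with the sign of the reported values but, in set 2, under the fold limit that the reported values passed. Split on mGFP, Tcf7l2 in set 1 was at -0.72. The cause of these shifts was not tested. No paired analysis was possible because only 1 library stood for each tissue, and no replicate could be left out. Depth limits Lef1 and Tcf7l1 most, with sums under 20 UMIs in several classes.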
